A study of Ovis aries with 6 samples.

Results

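The genes described here are WNT2B, WNT4, WNT5A, WNT5B, WNT6, RSPO1, SFRP1, FRZB and NKD1, which are WNT ligands and genes that modify the WNT signal from outside or inside the cell. They were chosen by name, and all 9 were found among the 30574 features of the deposited count tables. They were read in single-cell RNA sequencing libraries from the ovaries of 6 Hu sheep ewes, with 1 library per ewe. The 3 ewes of the high litter size group (HLS) had litters of at least 3 lambs, and the 3 ewes of the low litter size group (LLS) had litters of fewer than 2 lambs. All ewes were adults in oestrus, none was treated, and 1 ovary per ewe was dissociated without sorting. The group is thus a record of past litters and not an experimental treatment, and each value comes from 1 time in the cycle.

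WNT ligands are lipid-modified secreted proteins that act over short distances on Frizzled receptors and LRP co-receptors of the receiving cell. In the canonical branch the signal stabilises β-catenin, which then works with TCF and LEF factors on target genes, while WNT5A and WNT5B act mostly through branches that do not need β-catenin. R-spondins such as RSPO1 strengthen the signal by keeping Frizzled receptors at the cell surface. SFRP1 and FRZB are secreted decoys that bind WNT proteins outside the cell, whereas NKD1 is a cytoplasmic feedback inhibitor that binds Dishevelled, and so is not secreted. In the mammalian ovary, WNT4 and RSPO1 are known for ovarian differentiation in the embryo, and WNT signals take part in follicle growth, luteinisation and tissue remodelling.

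The libraries held 52290 barcodes with 43329214 to 75549906 unique molecular identifiers (UMIs) per ewe, and 36457 cells were retained after filtering and removal of called doublets, 5189 to 7096 per ewe. The median depth of the retained cells ran from 5187 to 9672 UMIs between ewes. Of the retained barcodes 138 were found in more than 1 library. Cells were clustered without the 9 genes or any other WNT pathway gene, and clusters were named from marker genes, so a name ending in "-like" is a rebuilt name and not the study's own annotation. There were 14781 endothelial-like, 8304 stromal-like, 2753 immune-like, 2751 granulosa-like, 2667 perivascular-like, 1872 theca-like, 345 epithelial-like, 253 B cell-like and 138 Schwann-like cells. The markers that gave the clusters their names, whose levels are therefore a description, were spread as follows: the mean level of CYP17A1 was 3.32 UMI per 10000 in theca-like cells, that of FSHR 1.02 in granulosa-like, that of PDGFRA 3.42 in stromal-like, that of RGS5 26.3 in perivascular-like and that of CDH5 3.90 in endothelial-like cells, each far above its level in the other 4 of these types. Granulosa-like cells were clustered again, together with the 195 cells of a cycling granulosa-like cluster. Of these cells 323 were named eGC-like (early granulosa), 258 CC-like (cumulus) and 764 mGC-like (mural) by marker lists. The study took some of these markers, such as WT1, IHH and CITED2, from earlier work and chose others on these same samples. The other sub-clusters stayed unnamed or were cycling. Shares of a sub-cluster are relative to the granulosa-like cells without the cycling cluster, so those of all sub-clusters can add up to more than the whole. The study also used WNT6 to recognise its early granulosa cells, and WNT6 was left out of the markers here. The other early granulosa markers were still in part chosen on these same samples, so the eGC-like name is not independent of WNT6.

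The level of a gene is given as its UMIs per 10000 UMIs of all genes in the summed cells of 1 type in 1 ewe, and a mean ± SD is over ewes. Levels of different genes were not compared with each other. Immune-like cells, which are not known as a source of most of these proteins, served as a rough yardstick for free RNA: their mean level lay between 0.00116 for WNT4 and 0.0468 for SFRP1. Free RNA itself was not measured, and its share may differ with depth. The median depth was 3089 UMIs in immune-like and 14239 in theca-like cells. Over the 9 named types, WNT5A and FRZB were highest in stromal-like cells, WNT5B in granulosa-like, WNT6 in perivascular-like, SFRP1 in Schwann-like, and WNT2B, WNT4, RSPO1 and NKD1 in epithelial-like cells. The epithelial-like level came from only 4 ewes with at least 10 such cells and spread widely, and its range overlapped that of the next type for all 4 genes. Epithelial-like cells held only 10 WNT4 and 20 NKD1 UMIs, and their WNT4 level ran from 0 in LLS ewe 1 to 0.204 in HLS ewe 3.

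**Figure D1:**
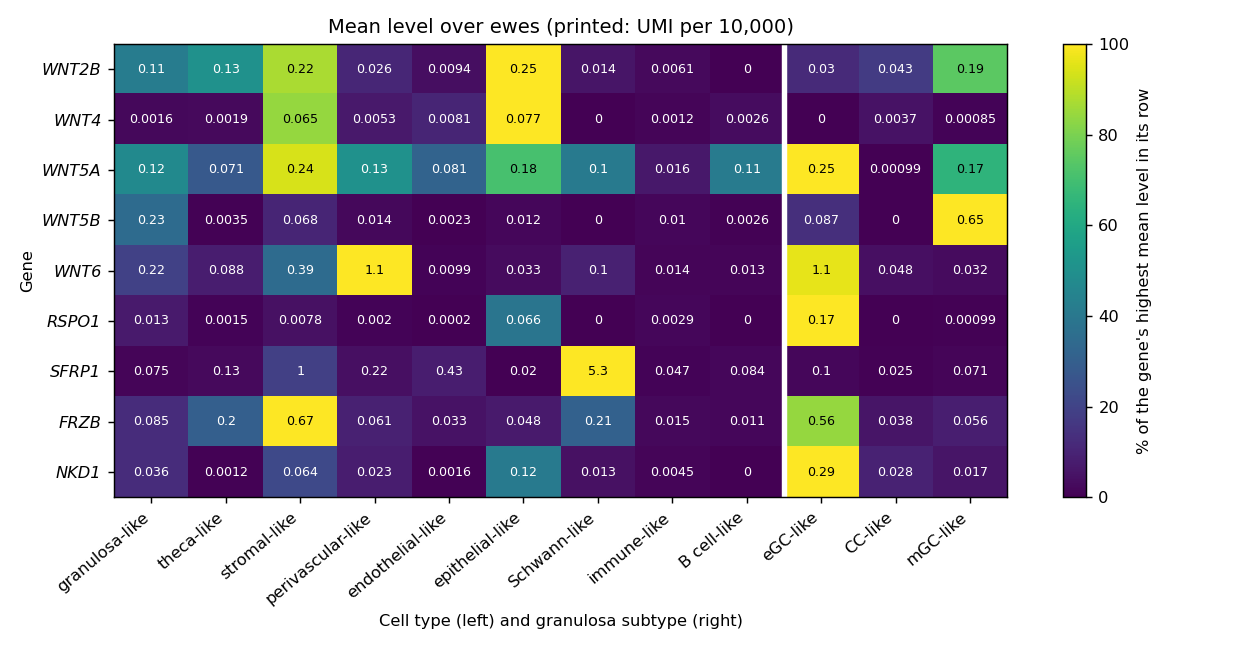
Heat map of the mean level of each gene (rows) in each cell type and granulosa subtype (columns). The printed number is the mean over ewes in UMI per 10000, and the colour is that mean as a percentage of the highest value in the gene's own row; WNT6 stands out in perivascular-like and eGC-like cells, WNT5B in mGC-like cells and SFRP1 in Schwann-like cells.

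WNT6, a canonical ligand, had its highest levels among the named types and granulosa subtypes in perivascular-like cells and in eGC-like granulosa cells. In perivascular-like cells its lowest, median and highest levels over the 6 ewes were 0.447, 0.941 and 2.27, with a mean of 1.12 ± 0.67 (SD, n = 6). In eGC-like cells they were 0.605, 1.11 and 1.50, with a mean of 1.08 ± 0.38 (SD, n = 6). Both ranges lay wholly above the immune-like range, which reached 0.0235. Stromal-like cells followed at 0.392 ± 0.181 (SD, n = 6), all granulosa-like cells at 0.217 ± 0.121 and theca-like cells at 0.0877 ± 0.0291, and neighbours in this order overlapped between ewes. Endothelial-like cells, at 0.00991 ± 0.00634, stood at the immune-like level of 0.0142 ± 0.0064. On average 28.2% of perivascular-like cells of a ewe had at least 1 WNT6 UMI against 0.676% of immune-like cells, at median depths of 3329 and 3089 UMIs; in cells thinned to 2000 UMIs the shares were 20.4% and 0.403%. Within perivascular-like cells, cluster 8 (led by RGS5, POSTN and KCNJ8) gave 82.5% of the WNT6 UMIs from 76.7% of all UMIs of that type, so the level was broadly shared between its clusters 8 and 11, at 1.28 ± 0.72 and 0.815 ± 0.516 (SD, n = 6 each).

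The granulosa-like WNT6 level came mostly from a small part of the cells. The eGC-like cells gave 33.8% of the 447 granulosa-like WNT6 UMIs from 6.60% of the UMIs of all genes. A further 35.1% came from sub-cluster 11, which had 111 cells. It stayed unnamed because the pericyte marker RGS5, at 5.98, was among its leading genes. Its early granulosa marker score was 0.805, beside 0.861 in the eGC-like sub-cluster, although its granulosa markers were low (pooled FSHR 0.0896 and FST 0.0672). A high score on the early granulosa list was thus not particular to cells with granulosa markers. WNT6 in sub-cluster 11 was 3.72 ± 0.72 (SD, 3 ewes with at least 10 such cells), above the means of perivascular-like and eGC-like cells. Of the 111 cells of this sub-cluster, 96 came from LLS ewes. Its part in the WNT6 values of granulosa-like cells is given below as values without it, an alternative chosen after seeing the data.

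WNT5B, a ligand of the β-catenin-independent branch, was highest in granulosa-like cells among the 9 types. Its levels in granulosa-like cells were 0.0674 at the lowest, 0.219 at the median and 0.416 at the highest, with a mean of 0.227 ± 0.142 (SD, n = 6), and stromal-like cells followed at 0.0680 ± 0.0235. Of the 650 granulosa-like WNT5B UMIs, 76.9% came from mural sub-cluster 8, which held 6.76% of the granulosa-like cells and was led by MMP9, FN1, ADAM12 and FBN1, genes of matrix turnover and matrix build-up. Its granulosa marker score was 0.127, beside 0.725 in the CC-like sub-cluster, with pooled FST at 0.396 and FSHR at 0.629. The mural cluster 13 of the first clustering had a granulosa marker score of 0.218, below the limit of 0.3. It was named granulosa-like through its mural marker score of 0.818. In the 4 ewes with at least 10 cells of sub-cluster 8, WNT5B stood at 1.13 and 2.48 in HLS ewes 1 and 3 and at 1.34 and 1.77 in LLS ewes 2 and 3. All 4 values exceeded the highest value of any ewe in stromal-like cells, 0.101. Theca-like cells, at 0.00345 ± 0.00326 with 8 UMIs in all, did not rise above the immune-like level of 0.0103 ± 0.0057.

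WNT5A, the better known ligand of the same branch, was spread more evenly. Stromal-like cells had 0.180, 0.243 and 0.282 as lowest, median and highest level, with a mean of 0.238 ± 0.034 (SD, n = 6). Epithelial-like (0.180 ± 0.085, 4 ewes), perivascular-like (0.129 ± 0.044) and granulosa-like cells (0.120 ± 0.083) followed with overlapping ranges. Endothelial-like cells, at 0.0807 ± 0.0534, and theca-like cells, at 0.0708 ± 0.0377, still lay above the immune-like 0.0160 ± 0.0107, and for theca-like cells the ranges did not overlap. Among endothelial-like cells, cluster 3 (led by CXCL9, SELP, IL6 and ACKR1) gave 41.3% of the WNT5A UMIs from 19.4% of all UMIs.

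WNT2B, a canonical ligand, was highest in epithelial-like cells, at 0.251 ± 0.278 over 4 ewes, where LLS ewe 2 alone reached 0.658 and only 1 of the 4 ewes had more WNT2B there than in its own stromal-like cells. Stromal-like cells had 0.149, 0.227 and 0.262 as lowest, median and highest level, with a mean of 0.218 ± 0.043 (SD, n = 6). Theca-like cells, at 0.127 ± 0.023, were lower in 6 of 6 ewes, and granulosa-like cells stood at 0.105 ± 0.045. Perivascular-like (0.0265 ± 0.0097), endothelial-like (0.00935 ± 0.00220) and immune-like cells (0.00606 ± 0.00595) were lower still, and no range of these 3 overlapped that of granulosa-like cells.

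WNT4, the ligand needed for ovarian differentiation, was sparse. Stromal-like cells had 350 UMIs in 8304 cells, with levels of 0.0491, 0.0652 and 0.0829 as lowest, median and highest and a mean of 0.0646 ± 0.0130 (SD, n = 6). Cluster 1 (led by CRABP1, ACTA2, TAGLN and DES, the last 3 genes of smooth muscle) gave 68.6% of these UMIs and had 0.125 ± 0.040 (SD, n = 6). Granulosa-like cells held 5 WNT4 UMIs among 24602273 and theca-like cells 4, so WNT4 was not detectable above the immune-like level in either. The endothelial-like UMIs of WNT4 also had a narrow source: 80.6% of 124 came from cluster 14, led by CCL21, MMRN1 and PROX1, genes known from lymphatic endothelium.

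RSPO1, the R-spondin of the list, had few UMIs. There were 28 UMIs in granulosa-like cells, 39 in epithelial-like and 37 in stromal-like cells, and it failed the filter on low counts in every comparison. Of the 28 granulosa-like UMIs, 21 lay in eGC-like cells, where the levels were 0.0502, 0.165 and 0.321 as lowest, median and highest and the mean was 0.171 ± 0.090 (SD, n = 6). Each of the 6 ewes had RSPO1 in eGC-like cells at a level above that of every ewe in mGC-like cells, which had 2 UMIs in all. In epithelial-like cells the mean was 0.0665 ± 0.0884 over 4 ewes, with 0.196 in LLS ewe 2 and 0 in HLS ewe 3. Endothelial-like cells had 3 UMIs among 148141979.

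**Figure D2:**
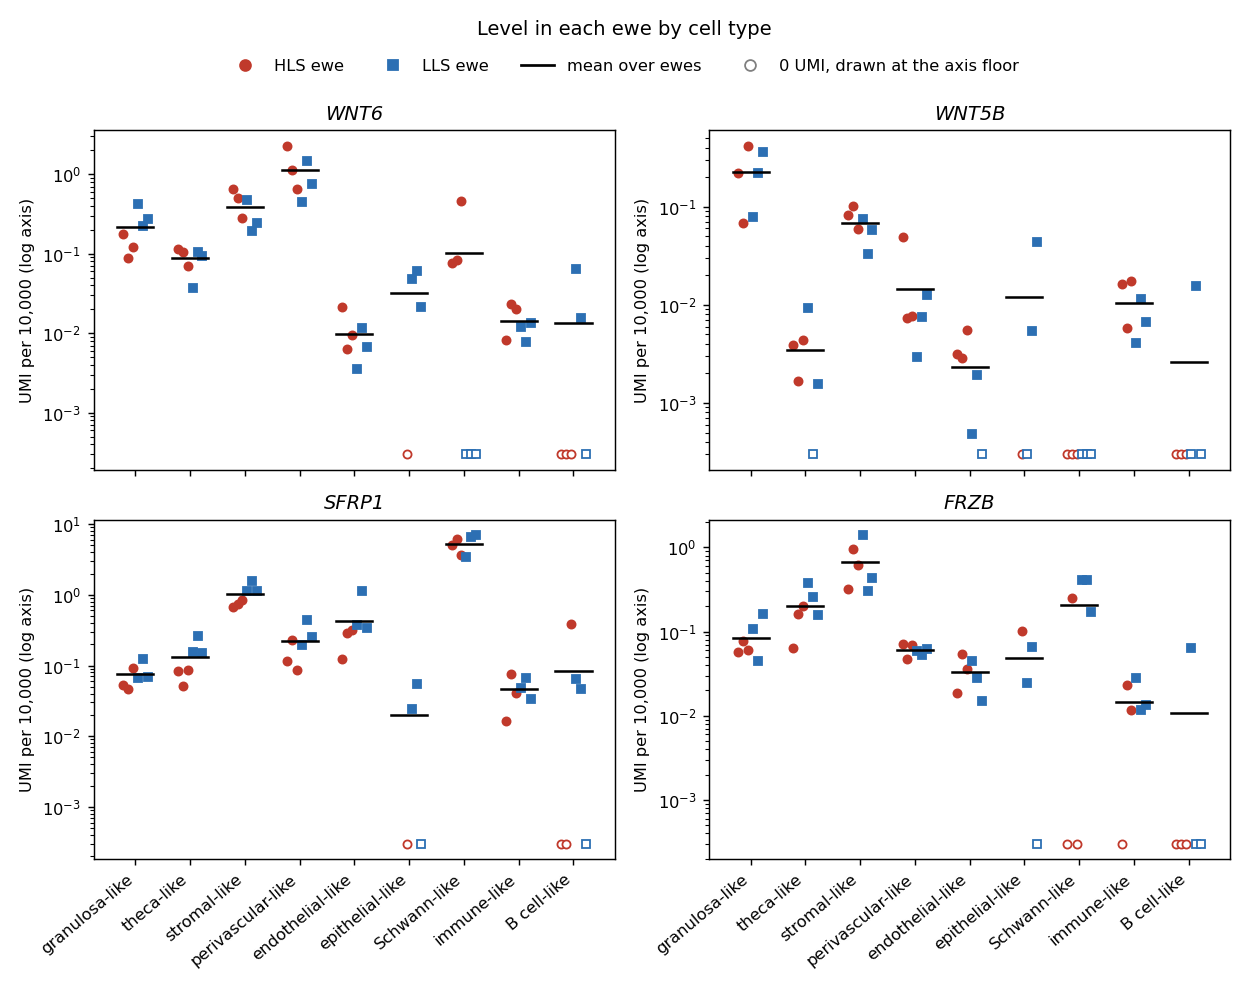
Level of WNT6, WNT5B, SFRP1 and FRZB in each ewe (points, coloured by group; log axis, UMI per 10000) by cell type, with the mean over ewes as a bar and ewes without a UMI drawn open at the axis floor. Every ewe had its SFRP1 level in Schwann-like cells at 3.47 or above, and every ewe had WNT6 in perivascular-like cells at 0.447 or above.

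SFRP1, a secreted decoy receptor, had narrow sources. Schwann-like cells, the glia of peripheral nerves, had 3.47, 5.57 and 6.91 as lowest, median and highest level, with a mean of 5.29 ± 1.49 (SD, n = 6). Every ewe was above every stromal-like value, the highest of which was 1.56. Stromal-like cells had a mean of 1.01 ± 0.33 (SD, n = 6), and 55.3% of their 5184 SFRP1 UMIs came from cluster 9 (led by SERPINF1, DPT, PI16 and MFAP5, genes of adventitial fibroblasts), which held 16.1% of all UMIs of the type and had 3.53 ± 1.13. All endothelial-like cells stood at 0.428 ± 0.349 (SD, n = 6), but 85.4% of their 5203 UMIs came from cluster 14, the one led by CCL21, MMRN1 and PROX1, with 3.93% of all UMIs. SFRP1 in cluster 14 had 3.98 as its lowest level, in HLS ewe 3, and 12.2 as its highest, in LLS ewe 3, with a mean of 7.75 ± 2.92 (SD, n = 6). Cluster 19 (led by ACKR1 and PNOC) was split, with 6.67, 6.75 and 6.33 in HLS ewes 1 and 3 and LLS ewe 1 and 0.443 to 1.53 in the other ewes. Outside clusters 14 and 19 the endothelial-like level fell to between 0.0132 and 0.0345, below the immune-like mean of 0.0468. SFRP1 in granulosa-like cells, at 0.0752 ± 0.0289, also overlapped the immune-like range of 0.0164 to 0.0763.

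FRZB, the other secreted decoy, was highest in stromal-like cells, with 0.305, 0.528 and 1.39 as lowest, median and highest level and a mean of 0.670 ± 0.427 (SD, n = 6). The spread between ewes was large, since LLS ewe 1 was at 1.39 and LLS ewe 2 at 0.305. Cluster 1 gave 63.0% of the 3300 UMIs at 0.973 ± 0.529. Schwann-like (0.207 ± 0.185) and theca-like cells (0.203 ± 0.106) followed and overlapped. The eGC-like subtype reached 0.565 ± 0.408, and each ewe was above all ewes of the mGC-like subtype, which stood at 0.0565 ± 0.0455.

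NKD1, the intracellular feedback inhibitor and itself a known target of the canonical signal, had its highest mean in eGC-like cells, with 0.225, 0.291 and 0.359 as lowest, median and highest level and a mean of 0.289 ± 0.050 (SD, n = 6). Of the 93 granulosa-like NKD1 UMIs 52.7% came from these cells. Epithelial-like cells had 0.118 ± 0.196 over 4 ewes and were at 0 in 2 of them. Stromal-like cells had 0.0640 ± 0.0252, and theca-like cells held 4 UMIs, at 0.00117 ± 0.00183 against 0.00452 ± 0.00677 in immune-like cells.

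Cell types were compared in 1 edgeR model over the summed counts of 6 types, with the ewe as a block and Benjamini-Hochberg adjusted p-values over 14380 genes. RSPO1 did not pass the filter, so 8 of the 9 genes were tested. Against stromal-like cells, 7 of the 8 were lower and WNT5B was higher in granulosa-like cells, where 47.8% of all genes were called. All 8 were lower in theca-like cells, where 47.6% of all genes were called. In perivascular-like cells 7 were lower and WNT6 was higher, with 37.4% of all genes called. All 8 were lower in endothelial-like cells, with 62.1% of all genes called. The median log2 fold change of the 8 genes was -1.21, -2.45, -2.38 and -4.34 in these 4 comparisons, beside -0.04, -0.07, -0.03 and 0.01 over all genes tested. WNT4 passed the filter through the stromal-like reference, where it is high, and other members may have done so. These counts and medians are therefore no support for the list.

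The stromal-like reference was itself mixed. Cluster 1, with smooth muscle genes among its leading genes, held 4235 of the 8304 stromal-like cells, and gave 60.1% of their WNT6, 68.7% of their NKD1 and 63.0% of their FRZB UMIs. Neither cluster 1 nor cluster 9 had a stromal marker among its top 10 genes. The stromal marker score was 0.719 in cluster 1, 0.682 in cluster 4 and 0.862 in cluster 9. Without cluster 1, an alternative chosen after seeing the data, WNT4 no longer passed the filter, and 5 members were called in granulosa-like cells, 5 in perivascular-like cells, 7 in theca-like cells and 7 in endothelial-like cells. In granulosa-like cells WNT6 was then at -0.52 (adjusted p = 0.18) and NKD1 at 0.11 (adjusted p = 0.867). In perivascular-like cells WNT5A was at -0.72 (adjusted p = 0.0795) and NKD1 at -0.56 (adjusted p = 0.419), while WNT6 was at 1.78 (adjusted p = 1.46e-05). WNT5B in granulosa-like cells was at 2.09 (adjusted p = 1.09e-05).

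**Figure D3:**
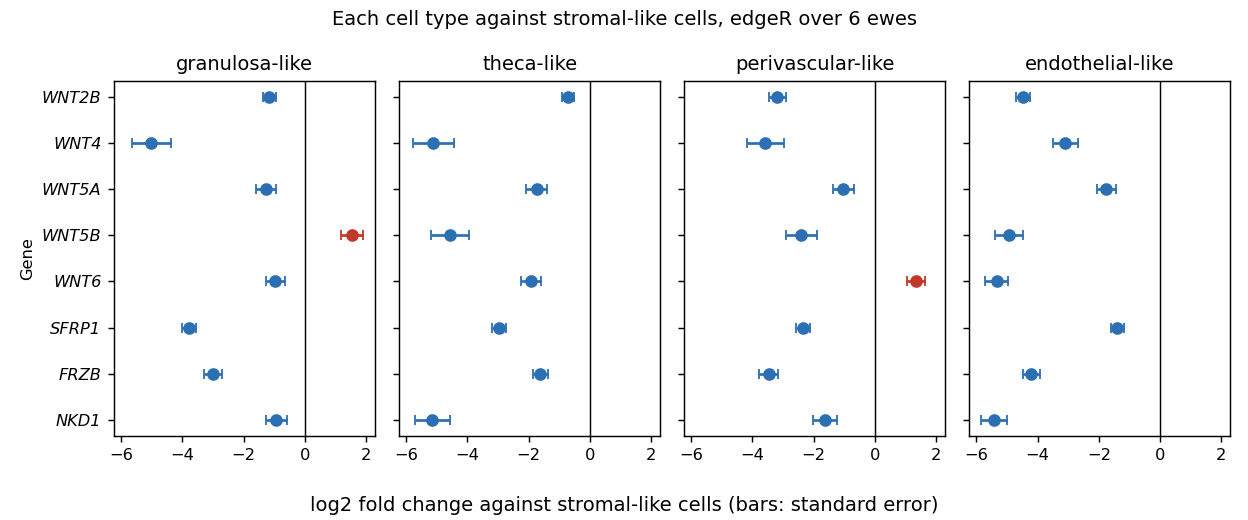
Log2 fold change of the 8 tested genes in granulosa-like, theca-like, perivascular-like and endothelial-like cells against stromal-like cells (points, edgeR, 6 ewes). Bars are an approximate standard error taken from the F statistic. Only WNT5B in granulosa-like cells (1.55) and WNT6 in perivascular-like cells (1.33) lie to the right of 0.

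The ligands differed in how far they fell below stroma. WNT5B was higher in granulosa-like than in stromal-like cells by a log2 fold change of 1.55 (SE 0.36, adjusted p = 0.000556), in 5 of 6 ewes. With each cell named by its own marker score in place of its cluster, the same value was 0.31 (adjusted p = 0.467). WNT6 was higher in perivascular-like than in stromal-like cells by 1.33 (SE 0.30, adjusted p = 0.000533), in 5 of 6 ewes, LLS ewe 1 being the exception. WNT4 was lower in theca-like cells by a log2 fold change of -5.12 (SE 0.67, adjusted p = 1.77e-07), and lower in granulosa-like cells by -5.01 (SE 0.64, adjusted p = 9.19e-08), each in 6 of 6 ewes. WNT2B differed least between theca-like and stromal-like cells, at -0.71 (SE 0.20, adjusted p = 0.00475), again in 6 of 6 ewes. WNT6 in granulosa-like against stromal-like cells was at -0.96 (SE 0.31, adjusted p = 0.0118) but lower in only 4 of 6 ewes, and the call was lost without HLS ewe 1 (adjusted p = 0.0745), without HLS ewe 2 (0.0793) and in cells thinned to 2000 UMIs (0.255). WNT5A in perivascular-like against stromal-like cells, at -1.03 (SE 0.34, adjusted p = 0.0152), lost its call without LLS ewe 1 (adjusted p = 0.0592) and without LLS ewe 3 (0.0625), with no ewe block (0.0666) and in thinned cells (0.0944).

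Among the inhibitors, SFRP1 was lower in granulosa-like than in stromal-like cells by -3.78 (SE 0.24, adjusted p = 3.12e-14), and FRZB by -3.00 (SE 0.28, adjusted p = 1.27e-10), both without overlap between ewes. SFRP1 differed less in endothelial-like cells, at -1.39 (SE 0.20, adjusted p = 2.60e-07), where cluster 14 carries most of it. NKD1 was lower in theca-like cells by -5.14 (SE 0.58, adjusted p = 1.14e-08) in 6 of 6 ewes. NKD1 in granulosa-like against stromal-like cells, at -0.93 (SE 0.35, adjusted p = 0.0269), lost its call without HLS ewe 1 (adjusted p = 0.0801), HLS ewe 2 (0.0578), LLS ewe 1 (0.0586) or LLS ewe 2 (0.0959), and with no ewe block (0.0853). NKD1 in perivascular-like against stromal-like cells, at -1.63, was at -0.77 (adjusted p = 0.0754) with cells named by their own score.

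The granulosa and theca layers of the follicle wall were also compared with each other, with 45.5% of all genes called. WNT5B (log2 fold change 6.12, SE 0.58, adjusted p = 2.87e-10) and NKD1 (4.21, SE 0.64, adjusted p = 1.98e-06) were higher in granulosa-like cells in 6 of 6 ewes without overlap, beside 8 and 4 UMIs in theca-like cells. In a fit of theca-like cells alone, neither gene passed the filter on low counts. Both entered the type fit through other types, where they are higher, so these calls are not independent of the filter. FRZB (-1.37, SE 0.29, adjusted p = 0.000242) and SFRP1 (-0.81, SE 0.26, adjusted p = 0.0117) were lower in 5 of 6 ewes. WNT6 was higher at 0.98 (SE 0.35, adjusted p = 0.0242) in 5 of 6 ewes, but at 0.36 (adjusted p = 0.436) without sub-cluster 11, the sub-cluster with RGS5. That call was also lost without LLS ewe 1 (adjusted p = 0.0803) or LLS ewe 3 (0.0843), as was that of SFRP1 without LLS ewe 3 (0.0658). With cells named by their own score WNT6 was at 0.12 (adjusted p = 0.784) and SFRP1 at -0.43 (adjusted p = 0.197), with no ewe block both calls were lost (0.0793 and 0.111), and in thinned cells FRZB was at -0.80 (adjusted p = 0.175). WNT2B, WNT4 and WNT5A did not pass the threshold, but WNT2B did so in 4 other settings: without HLS ewe 1 (-0.72, adjusted p = 0.0202), at a mitochondrial limit of 20% (-0.64, 0.0215), at the lower clustering resolution (-0.55, 0.0407) and with cells named by their own score (-0.75, 0.0108).

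Among the named granulosa subtypes, most members were highest in eGC-like or in mGC-like cells, and no member but WNT4, with 2 UMIs, was highest in CC-like cells. WNT6 was at 1.08 ± 0.38 in eGC-like, 0.0480 ± 0.0605 in CC-like and 0.0318 ± 0.0261 in mGC-like cells (SD, n = 6 each). RSPO1, FRZB and NKD1 were also highest in eGC-like cells, WNT5B and WNT2B in mGC-like cells, and WNT5A in eGC-like cells with mGC-like cells overlapping. The median depth was 4463 UMIs in eGC-like, 12180 in CC-like and 13000 in mGC-like cells, and the part of depth or free RNA in these differences was not tested. SFRP1 belonged to neither group: its mean was 0.102 in eGC-like and 0.0710 in mGC-like cells, but eGC-like cells were higher in only 2 of 6 ewes. WNT5B stood at 0.646 ± 0.586 in mGC-like cells, with 0.198, 0.340 and 1.62 as lowest, median and highest level, at 0.0866 ± 0.0674 in eGC-like cells, and at 0 of 3162607 UMIs in CC-like cells. Over the summed cells, a count of 0 allows up to 3 UMIs, so WNT5B was at least 62.4-fold higher in mGC-like than in CC-like cells, and RSPO1 at least 13.6-fold higher in eGC-like than in CC-like cells. The floor of WNT5B was 29.8 without HLS ewe 2 and 32.8 without HLS ewe 3, and that of RSPO1 was 5.99 without HLS ewe 2 and 8.48 without LLS ewe 2. WNT5A had 1 UMI in CC-like cells, and its summed level in eGC-like cells was 62.3 times as high, with an exact 95% counting interval of 10.4 to 2540. That interval and those floors cover counting error only.

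**Figure D4:**
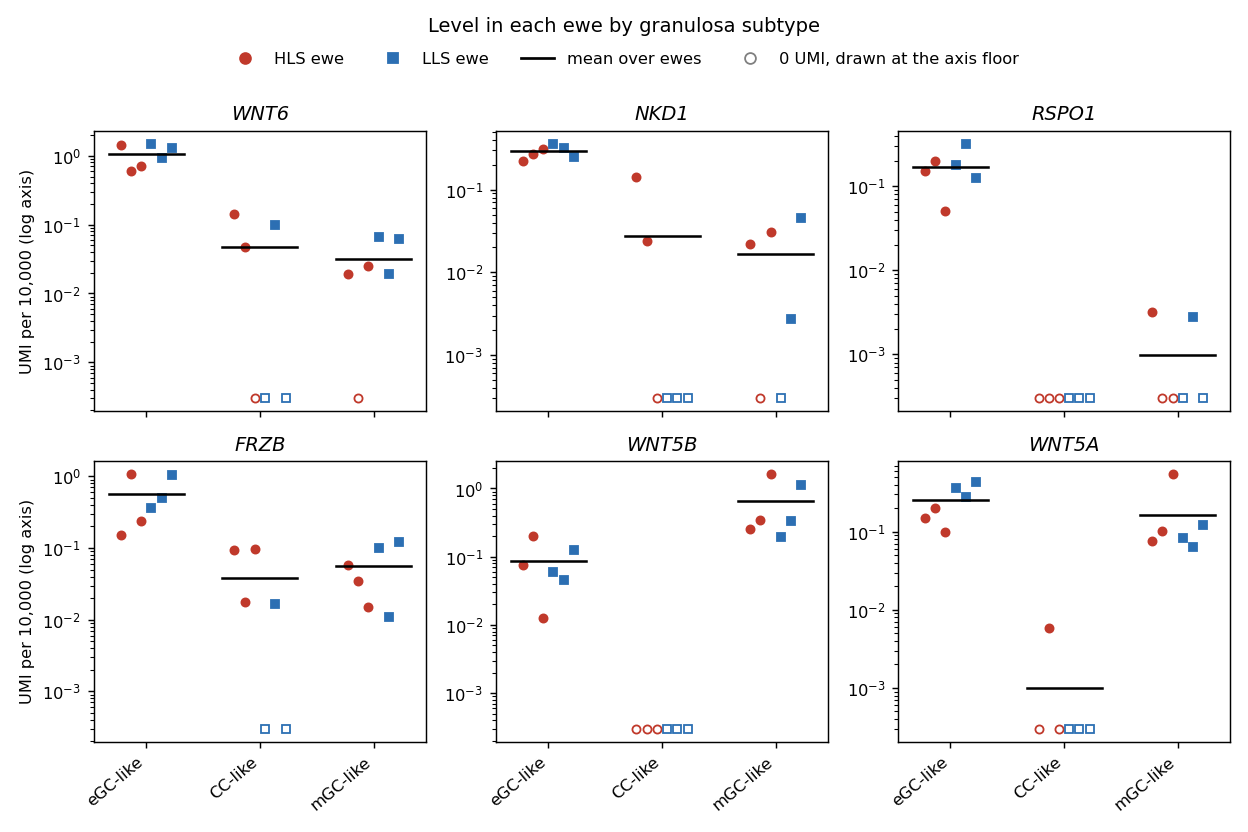
Level of 6 genes in each ewe (points, coloured by group; log axis, UMI per 10000) in eGC-like, CC-like and mGC-like granulosa cells, with the mean over ewes as a bar and ewes without a UMI drawn open at the axis floor. WNT6, NKD1 and RSPO1 in eGC-like cells lie above every value of the other subtypes, and WNT5B is absent from all CC-like points.

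The edgeR fit over the 3 subtypes held 6826 genes and only WNT6 and NKD1 of the 9. Both passed the filter through the eGC-like cells, where they are high, so that 2 of 2 were called is no support for the list. The WNT6 differences of eGC-like cells are also not independent of how these cells were named. Between eGC-like and mGC-like cells, where 44.3% of all genes were called, WNT6 differed by a log2 fold change of 5.23 (SE 0.34, adjusted p = 1.85e-12) and NKD1 by 4.03 (SE 0.57, adjusted p = 1.79e-06). Between eGC-like and CC-like cells, where 38.5% were called, WNT6 differed by 3.73 (SE 0.40, adjusted p = 6.02e-08) and NKD1 by 3.30 (SE 0.72, adjusted p = 0.000767). All 4 differences had the same direction in 6 of 6 ewes, without overlap. HLS ewe 1, LLS ewe 1 and LLS ewe 3 had only 13, 12 and 15 CC-like cells, so a level of 0 there is a loose bound. NKD1 did not pass the filter, and was not tested, without HLS ewe 2, HLS ewe 3 or LLS ewe 2. The same held with WNT genes among the variable genes and with cells named by their own score. With each cell named by its own score, WNT6 did not pass the test between eGC-like and CC-like cells (adjusted p = 0.999), and under that naming the eGC-like set grew from 323 to 927 cells. At the lower clustering resolution, with 1007 eGC-like cells, neither WNT6 nor NKD1 passed the filter, so that these calls were not tested there. At the higher resolution, with 33 CC-like cells, NKD1 did not pass between eGC-like and CC-like cells (6.62, adjusted p = 0.353). Between CC-like and mGC-like cells, where 46.8% were called, WNT6 was at 1.50 (SE 0.58, adjusted p = 0.0344) but higher in only 3 of 6 ewes, and the call was lost without HLS ewe 1 or 2 (adjusted p = 0.161 for each) or LLS ewe 2 (0.245), with no ewe block (0.142) and with WNT genes among the variable genes (0.163). With no filter on low counts, FRZB (log2 fold change 3.23) and RSPO1 (5.60) were higher and WNT2B (-2.10) and WNT5B (-3.98) were lower in eGC-like than in mGC-like cells. WNT2B and WNT5B had only 8 and 9 UMIs in eGC-like cells, and RSPO1 had 2 in mGC-like cells. In that edgeR fit the unadjusted p of WNT6 fell from 1.33e-14 to 5.16e-57 on the same sums. Its p-values are therefore not read as the spread between ewes.

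The study's own contrast was between prolific and less prolific ewes. None of the 9 genes passed the threshold between HLS and LLS in any of 5 cell types, and no gene of the whole tables did in edgeR (0.0% called in each). In granulosa-like cells 11669 genes were tested, 7 of the 9 among them, and 602 had an unadjusted p under 0.05. In stromal-like cells 13748 genes and 8 of the 9 were tested, and 661 had such a p. In theca-like cells these numbers were 12204, 5 and 406. In perivascular-like cells they were 11048, 4 and 375, and for endothelial-like cells 15137, 6 and 207. DESeq2 called 4 genes in endothelial-like cells, 2 in perivascular-like, 1 in stromal-like, 1 in granulosa-like and 0 in theca-like cells, none of them among the 9. With 3 ewes against 3 an exact permutation test of 1 gene cannot go below 0.10.

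SFRP1 had lower levels in HLS ewes, without overlap between the groups, in 3 of the 5 types. Of all genes tested, the groups did not overlap for 9.89% in stromal-like, for 10.5% in theca-like and for 4.45% in endothelial-like cells, and SFRP1 was the only one of the tested members in each. In stromal-like cells it stood at 0.681, 0.735 and 0.832 in HLS ewes and at 1.13, 1.56 and 1.12 in LLS ewes. The groups did not overlap, and the log2 fold change (HLS over LLS) was -0.67 (SE 0.17, unadjusted p = 0.00356 and adjusted p = 0.821 in edgeR). Without cluster 9, the stromal cluster richest in SFRP1, the HLS ewes were at 0.386 to 0.428 and the LLS ewes at 0.580 to 0.840, again without overlap. In theca-like cells SFRP1 stood at 0.0836, 0.0515 and 0.0870 in HLS ewes and at 0.157, 0.260 and 0.150 in LLS ewes, without overlap (log2 fold change -1.14, SE 0.34, adjusted p = 0.957 in edgeR). The theca-like level was low: HLS ewe 2 lay below its own immune-like level of 0.0763, while every other ewe lay above its own. Endothelial-like cells had 0.122, 0.291 and 0.320 in HLS ewes and 0.377, 1.12 and 0.343 in LLS ewes (log2 fold change -1.27, SE 0.49, adjusted p = 1.0 in edgeR). Cluster 14 made up 2.36% to 5.19% of endothelial-like cells in HLS ewes and 3.40% to 15.0% in LLS ewes, and its part in that difference was not tested. Without clusters 14 and 19 the endothelial-like levels overlapped, at 0.0167 to 0.0247 and 0.0132 to 0.0345. In perivascular-like cells the log2 fold change was -0.88 (SE 0.41) and in granulosa-like cells -0.29 (SE 0.38), with overlapping groups. With cells named by their own score these were -0.26 and -1.17, so that their order turned. The immune-like level of SFRP1 overlapped too, at 0.0164 to 0.0763 in HLS and 0.0333 to 0.0656 in LLS ewes. Free RNA itself was not measured, and its part in these differences was not tested. The 5 types share the same 6 ewes, so these are not 5 independent differences.

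**Figure D5:**
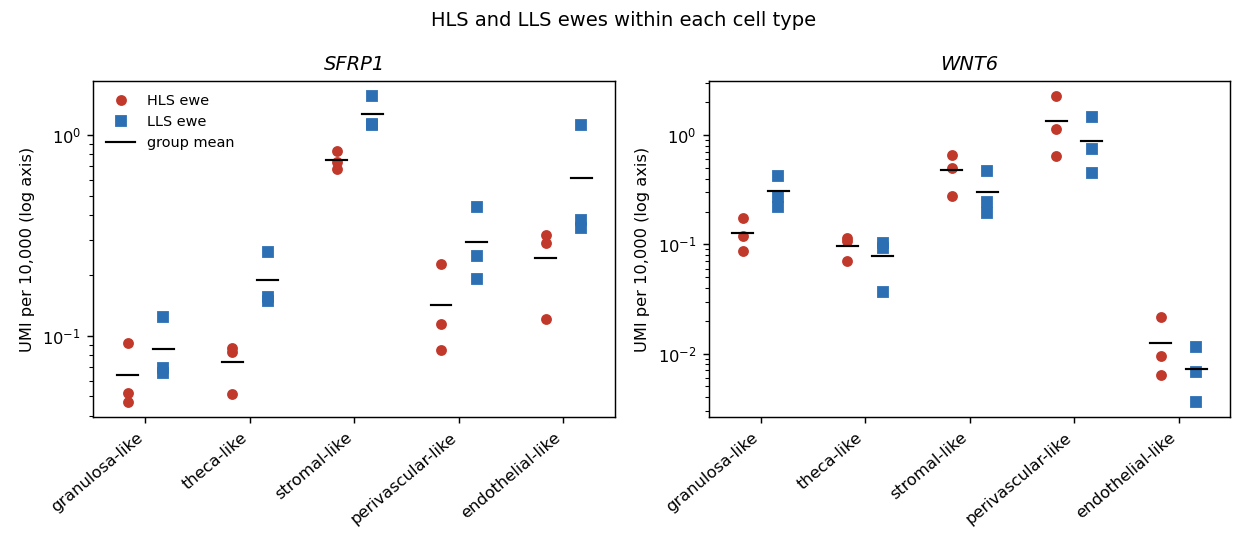
Level of SFRP1 and WNT6 in each ewe (points; log axis, UMI per 10000) in 5 cell types, HLS beside LLS, with the group mean as a bar. SFRP1 does not overlap between groups in theca-like, stromal-like and endothelial-like cells, and WNT6 is lower in HLS ewes in granulosa-like cells but has a higher HLS mean in the other 4 types; no difference passed the threshold in edgeR.

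WNT6 differed in direction between cell types. In granulosa-like cells it stood at 0.175, 0.0880 and 0.120 in HLS ewes and at 0.424, 0.222 and 0.272 in LLS ewes, without overlap, as for 15.4% of all genes tested there (log2 fold change -1.02, SE 0.35, unadjusted p = 0.0167 and adjusted p = 0.914 in edgeR). Without sub-cluster 11, to which LLS ewes gave 96 of 111 cells, the value was -0.50 (unadjusted p = 0.296 in edgeR), and with cells named by their own score it was 0.10. In stromal-like cells the HLS ewes stood at 0.660, 0.502 and 0.281 and the LLS ewes at 0.471, 0.193 and 0.245, with a log2 fold change of 0.81 (SE 0.44, adjusted p = 0.821 in edgeR), and of 0.34 without stromal cluster 1. The difference between the granulosa-like and stromal-like effects was tested directly over 13102 genes, of which 0.0% were called by edgeR, none by DESeq2, and 291 had an unadjusted p under 0.05. WNT6 had an interaction of -1.80 (SE 0.33, unadjusted p = 0.000334, adjusted p = 1.0 in edgeR). With no filter on low counts the adjusted p was 0.00506, the only setting in which WNT6 passed. In that edgeR fit the unadjusted p fell from 0.000334 to 4.48e-07 at the same interaction of -1.80. Its p-values are therefore not read as the spread between ewes. Without sub-cluster 11 the interaction was -1.19 (unadjusted p = 0.0242), and without stromal cluster 1 it was -1.22 (unadjusted p = 0.00853). With cells named by their own score it was -0.54 (unadjusted p = 0.18 in edgeR).

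The ligands WNT2B, WNT4, WNT5A and WNT5B and the inhibitors FRZB and NKD1 had group ranges that overlapped in every type where they were tested. FRZB in stromal-like cells was 0.633 ± 0.319 in HLS and 0.707 ± 0.591 in LLS ewes (SD, n = 3 each), with a log2 fold change of -0.13 (SE 0.56). WNT5A in stromal-like cells was 0.217 ± 0.033 against 0.260 ± 0.021 (log2 fold change -0.18, SE 0.15). WNT5B in granulosa-like cells was 0.234 ± 0.175 against 0.219 ± 0.141 (log2 fold change 0.27, SE 0.63). RSPO1 was not tested. In granulosa-like cells its level was 0.00811 ± 0.00276 in HLS and 0.0171 ± 0.0030 in LLS ewes, without overlap, from 28 UMIs in all. WNT5B in endothelial-like cells, also not tested, was at 0.00387 ± 0.00150 and 0.000798 ± 0.000996, without overlap, from 29 UMIs. Of all genes tested, the groups did not overlap for 15.4% in granulosa-like and 4.45% in endothelial-like cells.

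A list of 66 other WNT pathway genes, from ligands and secreted inhibitors to receptors, intracellular parts and target genes, had 42 members tested between cell types. Against stromal-like cells 7 were higher and 17 lower in granulosa-like, 15 and 17 in endothelial-like, 5 and 22 in theca-like and 7 and 11 in perivascular-like cells. Of all genes tested, 47.8%, 62.1%, 47.6% and 37.4% were called in the same order, so many calls are usual for any list. Of the 17 receptors and co-receptors tested, 10 were lower and 5 higher in theca-like cells, and 9 were lower and 7 higher in endothelial-like cells. Only 1 of 14 other ligands was abundant enough to be tested.

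Named members of that list, each with the same direction in 6 of 6 ewes, were spread over the cell types as follows. RSPO3, another R-spondin, stood at a mean level of 0.655 in stromal-like, 0.00502 in endothelial-like, 0.0178 in theca-like and 0.0204 in perivascular-like cells, and was lower than in stroma in all 3. It was also called lower in granulosa-like than in stromal-like cells (log2 fold change -3.47), without overlap. Perivascular-like cells, where WNT6 was highest among the named types, were also higher than stroma in DKK2, a secreted inhibitor at the LRP co-receptors (0.682 against 0.0706). The same held for SOST, sclerostin, which acts at the same co-receptors (0.128 against 0.00253). LEF1, a transcription factor of the canonical branch, was higher in granulosa-like (0.163) and in endothelial-like cells (0.630) than in stroma (0.0403). The receptor FZD5 was higher in granulosa-like cells (0.333 against 0.0652 in stroma), FZD6 in endothelial-like cells (0.427 against 0.0328), and FZD9 in theca-like cells (0.0773 against 0.0214). Granulosa-like cells had less SFRP2, another decoy receptor, than theca-like cells (0.0596 against 0.656).

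Among the granulosa subtypes 17 of the 66 were tested. Between eGC-like and mGC-like cells 6 were higher and 2 lower, between eGC-like and CC-like cells 4 and 4, and between CC-like and mGC-like cells 6 and 1. Of all genes tested, 44.3%, 38.5% and 46.8% were called in the same order, so these counts say little about the list. ZNRF3, the ubiquitin ligase that removes Frizzled receptors and that R-spondins inhibit, stood at 0.368 in eGC-like cells, where RSPO1 was highest, against 0.0671 in mGC-like and 0.0884 in CC-like cells, without overlap. RYK, a WNT co-receptor, was at 2.26 in eGC-like against 0.917 in mGC-like cells. WLS, the carrier that cells need to release WNT proteins, was at 0.0136 in CC-like against 0.334 in mGC-like cells.

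For each of the 9 genes, the genes outside the WNT lists with the most similar mean level over the 9 named types were found by Pearson's r of log2(level + 0.01) over 14330 genes. These are descriptions over 9 points that share libraries and differ in depth. WNT6 was most like CACNA1H (r = 0.972), MYH11 (0.968) and TAGLN (0.965), of which MYH11 also stands on the list of early granulosa markers. WNT5B was most like FATE1 (r = 0.990), SYNDIG1 (0.965) and C14H19orf33 (0.946), RSPO1 like DSG2 (0.985), CORIN (0.981) and LRRC9 (0.973), and WNT4 like COL6A5 (0.970), ADCY8 (0.953) and MFAP5 (0.953). NKD1 was most like LRRN4CL (r = 0.968), ALDH1A2 (0.952) and SOX9 (0.937), and FRZB like NECAB3 (0.961), GXYLT2 (0.957) and LOC780518 (0.948). SFRP1 was most like CGRRF1 (r = 0.983), LOC105608322 (0.951) and LOC101116597 (0.951). WNT2B was most like LOC101113086 (0.964), PEX11A (0.960) and LOC101117587 (0.956), and WNT5A like LOC105605886 (0.938), CHIC1 (0.935) and TRNAV-UAC_4 (0.913).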

How the data were processed

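Chromium 3' v3 libraries of 6 ewes were aligned and counted by the authors with Cell Ranger 5.0.0, which runs STAR; the genome build is not given in the sources used here. The deposited matrices hold raw UMI counts, with no normalization. Barcodes with at least 200 genes and 1000 UMIs, a log10 gene to log10 UMI ratio above 0.7, under 10% mitochondrial and under 5% haemoglobin UMIs were kept, as in the study's methods (38464 of 52290). Doublets were called per library from simulated pairs, 2007 in all, and removed. Cells were clustered (Leiden, 2000 variable genes, 30 principal components) without the WNT genes. Clusters were named from fixed marker lists, but the score limits of the naming were set after clusters and member values had been seen. The members and gene lists were chosen with earlier results of these data known.

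Counts were summed per ewe and type (at least 10 cells) and fitted with edgeR 4.0.16 quasi-likelihood tests (TMM, filterByExpr, Benjamini-Hochberg threshold 0.05); type fits carried the ewe as a block. The ewe was the replicate, with totals of 43329214 to 75549906 UMIs. The SE beside an edgeR fold change is approximate: the absolute log2 fold change divided by the square root of the F statistic. On simulated counts, the HLS against LLS test in granulosa-like cells (11669 genes) recovered 12% of 2-fold and 74% of 4-fold changes. It also made 12 false calls among the genes left unchanged. DESeq2 1.42.0 and the settings named in the closing section were alternatives. The text names the 9 members in every comparison and, of the other WNT genes, up to 3 higher and 3 lower per comparison with the largest called change and 1 direction in every ewe; those between cell types are named by a selection of these. RSPO3 in granulosa-like against stromal-like cells is named in addition. For likeness, the 3 genes of highest r per member are named. The replicate numbers were not taken to pair the ewes in the main fits. The correlations of same-numbered ewes' deviations ran from -0.335 to 0.286, and for replicate 3 from 0.0952 to 0.286. Deviations from a mean of 3 ewes are tied to each other, so these values cannot exclude a pairing.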

Additional observations from a re-analysis of the deposited data

How the results depend on the processing

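Of 1541 values recomputed under 22 other settings, 1418 kept their direction and side of the threshold, or a count within 1.5 times. A gene that failed the filter in a setting gave no value there, so calls lost in that way are not among the 1541. Counts were compared by number, whichever members were called, and a count that stayed at 0 was taken as kept. The number kept may therefore overstate the stability. Thinning cells to 2000 UMIs lowered the genes called to 4184, 4221, 3218 and 5831 in granulosa-like, theca-like, perivascular-like and endothelial-like against stromal-like cells, with 4, 5, 4 and 5 members called, and to 3311 genes and 2 members in granulosa-like against theca-like cells. In the subtypes it left 807 (eGC-like against mGC-like), 773 (eGC-like against CC-like) and 788 genes (CC-like against mGC-like) and 0 members, since no member passed the filter there. Without stromal cluster 1, 5 members were called in both granulosa-like and perivascular-like against stromal-like cells, and NKD1 in granulosa-like against stromal-like cells turned from -0.93 to 0.11. Members called in granulosa-like against theca-like cells were 3 with no ewe block and 3 to 6 without 1 ewe (3 without LLS ewe 3). Which members passed the filter differed between settings in the subtypes. With no filter 6, 6 and 4 members were called in the 3 comparisons in the order above, in a fit whose p-values are not read as the spread between ewes. At the higher resolution these were 6, 1 and 0, with 597 genes in eGC-like against CC-like and 1047 in CC-like against mGC-like cells, where only 33 cells were CC-like. At the lower resolution, where WNT6 and NKD1 did not pass the filter and were not tested, they were 1, 1 and 2 (WNT5B or WNT5A). At a 20% mitochondrial limit, where NKD1 was not tested, they were 1 in both eGC-like comparisons, with cells named by their own score 1 against mGC-like and 3 in CC-like against mGC-like cells, and 0 in the latter with no ewe block. Without 1 ewe they ran from 1 to 4, 1 to 4 and 0 to 2, and the genes from 1798 to 3081, 1672 to 2572 and 2022 to 3279, with the genes lowest without HLS ewe 3 in each.

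Between HLS and LLS, DESeq2 called 1, 1, 2 and 4 genes in granulosa-like, stromal-like, perivascular-like and endothelial-like cells. No filter gave 44 genes in theca-like cells, 12 in perivascular-like cells and 12 genes with 1 member, WNT6, in the interaction. The p-values of that unfiltered interaction fit are not read as the spread between ewes. Without 1 ewe there were 0 to 2 genes in stromal-like and 0 to 1 in theca-like, perivascular-like and endothelial-like cells, and no member was called in any of these types. With the replicate numbers as a block the call count stayed at 0, and FRZB in stromal-like cells turned to 0.15. Whether the numbers pair the ewes is not known.

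WNT4 in granulosa-like against theca-like cells (main value 0.11) became -0.00273 in DESeq2, -0.55 with doublets kept, -0.57 at the 20% limit, -0.75 with WNT genes among the variable genes, -0.24 with cells named by their own score, -0.14 without sub-cluster 11, and ran from -0.44 (without LLS ewe 2) to 0.35. WNT6 in eGC-like against CC-like cells became -0.00197 with cells named by their own score. NKD1 in CC-like against mGC-like cells became -3.11 at the higher resolution and ran from -0.05 (without HLS ewe 1) to 1.03 without 1 ewe. Between HLS and LLS without 1 ewe, WNT5B in granulosa-like cells ran from -0.35 to 0.78 (below 0 without HLS ewe 3 and, at -0.10, without LLS ewe 1). FRZB in stromal-like cells ran from -0.50 to 0.85 (above 0 without LLS ewe 1 and, at 0.13, without HLS ewe 1), and NKD1 there from -0.21 to 0.70 (below 0 without LLS ewe 3 and, at -0.07, without HLS ewe 1), and was at -0.02 without stromal cluster 1. Where no construction of the setting is named, the cause was not tested.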

Other observations

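Cycling clusters were kept out of the named types, but the cycling granulosa-like cluster entered the second clustering of granulosa-like cells. WNT2B stood at 0.261 ± 0.083 (SD, n = 6 ewes) in the cycling stromal-like cluster 16, close to the 0.242 ± 0.033 of the stromal-like cluster 4, led by COL11A1, PTCH1 and TCF21. The ranges of these clusters overlapped between ewes.

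Sub-cluster 4 of the granulosa-like cells, which shared FATE1 among its leading genes with sub-cluster 11 and stayed unnamed, had WNT6 at 0.669 ± 0.495 (SD, n = 6), from 0 in HLS ewe 2 to 1.45 in HLS ewe 1. Its summed RGS5 level was 0.306, beside 5.98 in sub-cluster 11 and 0.117 in eGC-like cells.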
